A study of Mus musculus with 2 samples.

Results

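The cells described here are Crabp1-type dermal fibroblasts, a group of mesenchymal cells among the tdTomato+ cells of embryonic mouse skin. They were chosen by measured values. A cell qualified with at least 20 unique molecular identifiers (UMIs, which count captured mRNA molecules) of *Col1a1*, *Col3a1*, *Lum* and *Dcn* together, at least 5 of *Lum* and *Dcn*, and at most 10 of the pigment genes *Dct*, *Pmel* and *Mlana*. Among these mesenchymal cells, a Crabp1-type cell had at most 3 UMIs of *Mfap5* and *Clec3b*, and more UMIs of *Crabp1*, *Egfl6*, *Pth1r*, *Irx1* and *Apela* together than of *Mfap4*, *Angptl1*, *C1qtnf3*, *Sfrp4* and *Ogn* together. The rule took 151 cells of the WT library and 102 cells of the KO library, 253 of 2392 cell barcodes in all. In each pair of values below, the WT library comes first and the KO library comes next unless a sentence names them otherwise.

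The study examined what loss of the histone chaperone HIRA, which places histone H3.3 in chromatin, does to cells of the melanocyte lineage before birth. Trunk skin was taken at E15.5 from embryos whose Hira alleles were either wt/wt (WT) or fl/fl (KO), the latter open to deletion by Cre, and the tdTomato+ cells were sorted and sequenced by 3′ droplet single-cell RNA-seq; 1 library of each genotype is described here. Both groups carried the TyrCre driver and the tdTomato reporter, so the Cre recombinase was present in the WT embryos too, and the strain was given as mixed and close to C57BL/6J. Sorting on tdTomato kept any cell in which the reporter had been switched on, whether or not it was a pigment cell.

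The dermis of the embryo is built by fibroblasts that differ with depth. Those next to the epidermis receive Wnt signals from it, turn on transcription factors such as Twist2, help to make the basement membrane and give rise to the dermal condensates of hair follicles, while deeper fibroblasts form the reticular dermis and the fascia. Crabp1 is a cytoplasmic retinoic acid binding protein, and melanoblasts cross the dermis beside these fibroblasts on their way to the epidermis.

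The WT library held 7073939 UMIs in 1546 barcodes (median 3961) and the KO library 5049514 UMIs in 846 barcodes (median 5152.5), and the 2 libraries shared 0 barcodes. A filter of at least 100 genes and at most 10% mitochondrial UMIs kept 1540 and 828 cells. Crabp1-type cells held 765529 UMIs in the WT library, with a median of 4601 UMIs and 1619 genes per cell, and 657531 in the KO library, with medians of 5775.5 UMIs and 1932.5 genes. The KO cells were thus read more deeply. Mitochondrial genes took a median of 2.03% and 2.15% of a cell's UMIs.

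*Xist*, the RNA that coats the inactive X chromosome, had 1736 UMIs in the WT Crabp1-type cells and 3 in the KO ones, while the Y-linked *Ddx3y* had 0 and 32. The WT cells were thus female and the KO cells male, and genotype, sex and library cannot be told apart. *Hira* itself had 7 and 6 UMIs in Crabp1-type cells, too few to show whether the allele was lost in them. The reporter had 7 and 10 UMIs and Cre 1 and 2 UMIs in the same cells. No difference between the libraries has a replicate check, so values are given with 95% intervals that cover counting error only, without a test.

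Of the 5 genes that made up the positive side of the rule, *Crabp1* (ENSMUSG00000032291, chr9:54764748-54773110, plus strand on GRCm38) was the most abundant, with 2206 and 1862 CPM (CPM, the UMIs of a gene per 1000000 UMIs of the summed cells). *Egfl6*, a matrix protein, had 668 and 605 CPM, and *Pth1r*, the receptor for parathyroid hormone and its related peptide, had 366 and 344 CPM. The homeobox gene *Irx1* had 238 and 198 CPM and the peptide hormone gene *Apela* 150.2 and 102 CPM. As 3′ UMIs do not scale with transcript length, a comparison of levels between genes in this scale is a comparison of molecules captured. These values describe the choice and are no result.

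The same genes were read as shares of cells with a UMI in cells thinned at random to 2000 UMIs each, which left out 4 WT cells and 0 KO cells. *Crabp1* was found in 96.6% and 90.2% of the thinned cells (100% and 96.1% unthinned). In cells with at least 10 UMIs of the macrophage genes *C1qa*, *C1qb* and *C1qc*, which give the background (99 WT and 20 KO cells before thinning, of which 0 and 3 also counted as mesenchymal), the share of *Crabp1* was 3.06% and 10.0% thinned and 10.1% and 35.0% unthinned, the latter at a median depth of 5608 and 8125 UMIs. The other 4 genes were each found in a part of the cells, from 63.9% and 68.6% for *Egfl6* (82.1% and 86.3% unthinned) to 28.6% and 23.5% for *Apela* (45.7% and 38.2% unthinned). In the background cells the thinned shares of these 4 were 0% to 1.02% in WT and 0% in KO, and unthinned 0% to 3.03% and 10.0%. At least 3 of the 5 genes were found together in 60.5% and 57.8% of the thinned Crabp1-type cells.

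Most cells lay far from the threshold. The median excess of the first set of genes over the other was 17 UMIs in the WT library and 18 in the KO library, with ranges of 1 to 49 and 1 to 60, and 110 of 151 and 54 of 102 cells had 0 UMIs of the other set. Just inside, 8 WT and 5 KO cells had an excess of 1 to 3 UMIs, with means of 3.12 against 1.12 UMIs in WT and 3.40 against 1.60 in KO. Just outside, 7 WT and 11 KO cells had an excess of -2 to 0, with means of 3.29 against 4.43 UMIs and 2.18 against 3.09. A further 4 and 3 mesenchymal cells had more UMIs of the first set but were kept out by more than 3 UMIs of *Mfap5* and *Clec3b*.

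*Twist2* (ENSMUSG00000007805, chr1:91801461-91848028, plus strand on GRCm38), a basic helix-loop-helix repressor of the dermal lineage, is a marker of these cells that the rule did not use. It had 848 CPM in the WT library (95% interval 784 to 916) and 811 CPM in the KO library (743 to 882). Its levels were 68.6 and 130.0 CPM in the mesenchymal cells in which the other set of genes was higher (Mfap4/Angptl1-type, 23 and 59 cells) and 181 and 139 CPM in those with over 3 UMIs of *Mfap5* and *Clec3b* (Mfap5/Clec3b-type, 33 and 76 cells). *Twist2* was found in 81.6% and 71.6% of thinned Crabp1-type cells (95.4% and 93.1% unthinned), against 2.04% and 5.00% of the macrophage marker-positive cells (5.05% and 15% unthinned). The markers were chosen with earlier results of these data known, so these values describe the cells and do not test the label.

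The most abundant transcripts of Crabp1-type cells, apart from mitochondrial and ribosomal protein genes, included genes of the matrix, the cytoskeleton and translation. The nuclear RNA *Malat1* led with 14919 and 15479 CPM, followed by the galectin gene *Lgals1* with 13640.2 and 12859 CPM. *Lgals1* was also higher than in the Mfap4/Angptl1-type (6760.1 and 5896 CPM) and the Mfap5/Clec3b-type (7092 and 7047 CPM). The thymosin gene *Tmsb10* had 6763 and 7574 CPM and the matricellular gene *Sparc* 4786 and 4500.2 CPM. Type I collagen was represented by *Col1a2* with 4138 and 4908 CPM beside the rule gene *Col1a1* with 3908 and 4605 CPM. *Ppia*, *Ptma*, *Eef1a1* and *Ftl1*, which serve protein folding, chromatin, translation and iron storage, and the rule genes *Col3a1* and *Lum* completed the 12.

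Crabp1-type cells were next compared with the Mfap4/Angptl1-type of the same library, as a description, since counts in the same cells had drawn the border between them. Of 2058 genes with at least 50 UMIs over both types in each library, 65 (3.16%) were at least 2-fold higher in both libraries and 30 (1.46%) at least 2-fold lower, with medians over all genes of 0.02 and 0.15 on the log2 scale. More genes were past 2-fold in 1 library only, with 79 higher in WT and 78 in KO and 39 lower in WT and 33 in KO, and 4 were past it in opposite directions. The WT side of this comparison rests on 23 cells, 1 of which held 25290 of their 131211 UMIs. Adipocyte markers (6) summed to 2713 and 164 CPM in this type, against 103 and 91.3 CPM in Crabp1-type cells. With 765529 UMIs against 131211 in WT, Crabp1-type cells counted far more towards the limit of 50 UMIs. Genes high in Crabp1-type cells passed it more easily, here and against the Mfap5/Clec3b-type. Counts of higher list members below are thus a description only.

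The leading genes on the higher side included cell surface and signalling genes. Log2 ratios stand in parentheses, each followed by its interval where the counts were small. The claudin gene *Cldn10*, a tight junction component, had 167 and 146 CPM against 7.62 and 8.48 CPM in the Mfap4/Angptl1-type (4.46, 1.95 to 9.77, and 4.11, 2.52 to 6.41). *Stmn2*, a regulator of microtubules best known from neurons, had 146 and 97.3 CPM against 7.62 and 8.48 CPM (4.26, 1.76 to 9.58, and 3.52, 1.91 to 5.84). It made up nearly all of the 148 and 98.9 CPM of 6 neuron markers, 3 of which had a UMI, while *Elavl3*, *Elavl4* and *Nefl* had 0. *Robo2*, a receptor for Slit guidance proteins, had 81.0 and 102 CPM against 7.62 and 14.1 CPM (3.41, 0.88 to 8.74, and 2.85, 1.56 to 4.52). Each of these ratios rests on 1 to 5 UMIs in the other type, so the direction is better determined than the size.

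The zinc finger gene *Bcl11b* had 144 and 154 CPM against 22.9 and 14.1 CPM (2.65, 1.07 to 4.95, and 3.44, 2.17 to 5.10). *Mef2c*, a MADS box factor, had 217 and 242 CPM against 15.2 and 50.9 CPM (3.83, 1.95 to 6.89, and 2.25, 1.54 to 3.04), and *Twist2* was also among the leading 10 (3.63 and 2.64). Of 20 upper dermis transcription factors, 18 had a UMI in Crabp1-type cells and 6 could be read in this comparison. *Twist2*, *Trps1* and *Prrx2* were at least 2-fold higher in both libraries, beside 3.16% of all genes, and 0 of the 6 were lower. The same 3 of 6 were higher against the Mfap5/Clec3b-type, beside 2.23%. Against the Mfap4/Angptl1-type the list's medians were 1.35 and 1.71, beside 0.02 and 0.15 over all genes. Genes high in Crabp1-type cells passed the UMI limit more easily, so these counts and medians support no conclusion on the list.

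On the lower side, *Aspn*, a small proteoglycan that binds collagen and TGF-beta, had 30.0 and 56.3 CPM against 1089.8 and 933 CPM (-5.18 and -4.05). *Igfbp4*, which binds insulin-like growth factors, had 22.2 and 41.1 CPM against 328 and 526 CPM (-3.88 and -3.68), and the heparin-binding cytokine gene *Ptn* had 218 and 283 CPM against 2850.4 and 2173 CPM (-3.71 and -2.94). The matricellular gene *Postn* was lower by the same measure, with 125 and 134 CPM against 976 and 1552 CPM. *Itm2a* had 585 and 516 CPM against 2652 and 3338 CPM, and *Col14a1* and *Col12a1*, which decorate collagen fibrils, completed the leading 10 together with the imprinted genes *Mest*, *Plagl1* and *Dlk1*.

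Against the Mfap5/Clec3b-type, 48 of 2155 genes (2.23%) were at least 2-fold higher in both libraries and 88 (4.08%) at least 2-fold lower, with medians over all genes of 0.14 and 0.09 and 0 genes past 2-fold in opposite directions. In 1 library only, 132 were higher in WT and 40 in KO, and 55 lower in WT and 30 in KO. The genes higher in both libraries were led by *Wif1*, a secreted Wnt inhibitor, with 205 and 209.9 CPM against 7.24 and 3.87 CPM (4.82, 2.32 to 10.14, and 5.76, 3.88 to 8.82). *Trps1*, a GATA-type repressor active in hair and skin, had 135 and 131 CPM against 7.24 and 11.6 CPM (4.22, 1.71 to 9.53, and 3.50, 2.31 to 4.98). *Bcl11b* had 7.24 and 5.80 CPM in this type (4.31, 1.80 to 9.63, and 4.73, 3.14 to 7.03). *Emp2*, a small membrane protein, had 102 and 116 CPM against 14.5 and 11.6 CPM (2.81, 0.91 to 5.89, and 3.32, 2.13 to 4.81), and *Ppp1r14a*, an inhibitor of myosin phosphatase, had 161 and 186 CPM against 14.5 and 17.4 CPM (3.47, 1.59 to 6.53, and 3.41, 2.44 to 4.58). *Cldn10*, *Robo2*, *Ptch1*, *Stmn2* and *Col7a1* were the others among the leading 10.

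Among the leading 10 genes that were lower than in the Mfap5/Clec3b-type, *Igf1*, a secreted growth factor, had 11.8 and 36.5 CPM against 529 and 555 CPM (-5.49 and -3.93). The guidance cue gene *Sema3c* had 5.23 and 12.2 CPM against 464 and 263 CPM (-6.47, -8.39 to -5.04, and -4.43, -5.67 to -3.41), and the kinase gene *Nrk* had 10.5 and 19.8 CPM against 369 and 478 CPM (-5.14 and -4.59). The scaffold protein gene *Akap12* had 6.53 and 19.8 CPM against 362 and 315 CPM (-5.79, -7.48 to -4.48, and -3.99, -4.93 to -3.18). *Col14a1*, *Igfbp4*, *Aspn*, *Plagl1*, *Ptn* and *Itm2a* were the other 6.

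The 2 comparisons share the Crabp1-type cells, so their overlap follows in part from that. There were 34 genes higher in both, which is 52.3% of the genes higher against the Mfap4/Angptl1-type and 70.8% of those higher against the Mfap5/Clec3b-type. For the lower side the shared count was 26, or 86.7% and 29.5% of the respective lists. The 34 included *Thy1*, *Zeb2*, *Tcf4*, *Cav1*, *Nkd1*, *Id1*, *Cxcl14* and *Efna5* beside the leading genes named above. They also held the macrophage genes *Fcer1g*, *Tyrobp* and *Lyz2*, which come up again with the other cell types.

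**Figure D1:**
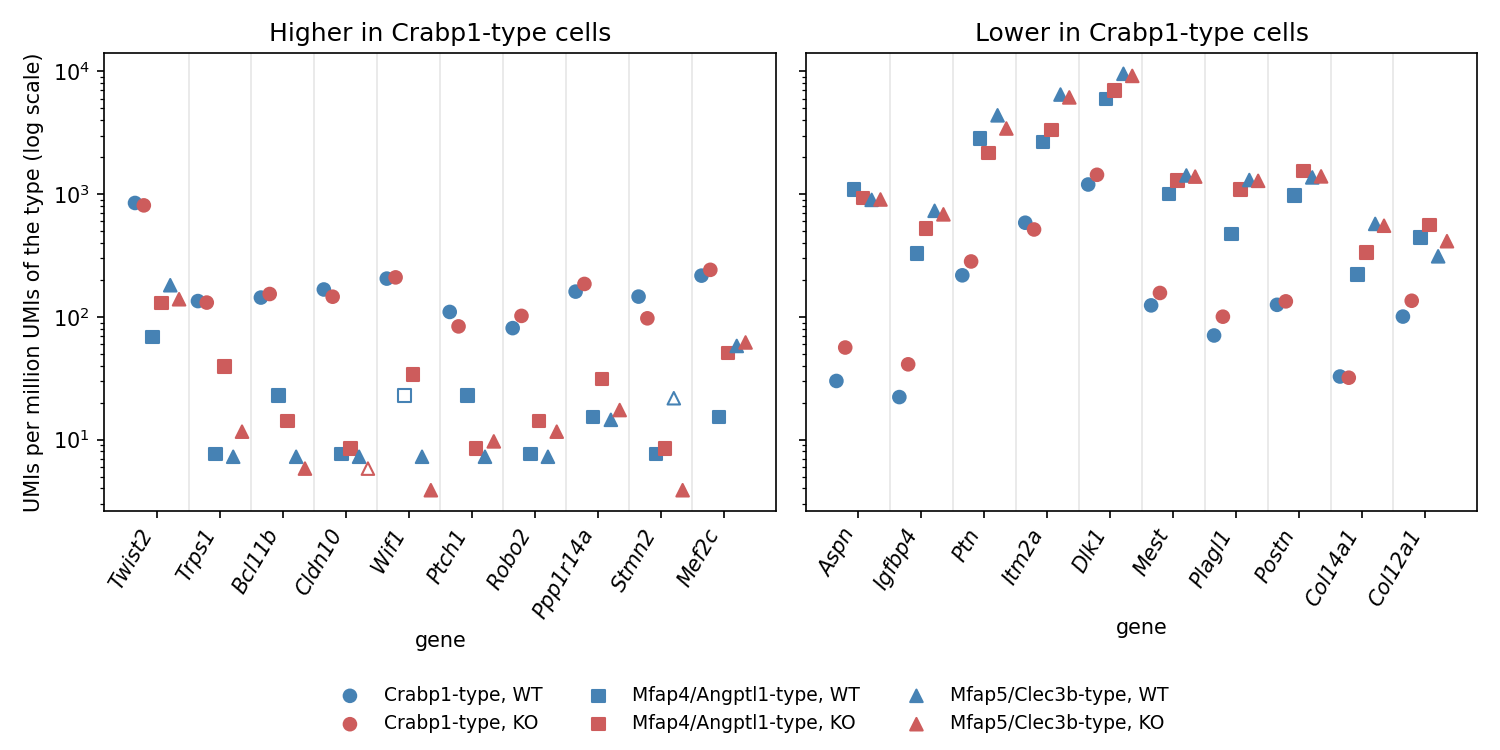
CPM (log axis) of 10 genes that were higher and 10 that were lower in Crabp1-type cells (circles) than in the Mfap4/Angptl1-type (squares) and Mfap5/Clec3b-type (triangles), in the WT (blue) and KO (red) library. Open symbols mark 0 UMIs and are drawn at the level of 3 counts; *Twist2* stood at 848 and 811 CPM in Crabp1-type cells and under 200 CPM in the other types.

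Below, where the values of both other types follow each other, the Mfap4/Angptl1-type comes first. Wnt signalling genes were read from a list of 25 ligands, receptors and targets, of which 22 had a UMI (0 for *Wnt2*, *Wnt10b* and *Wnt16*). Of the 5 that could be read against the Mfap4/Angptl1-type, *Rspo3*, *Nkd1* and *Twist2* were at least 2-fold higher in both libraries, beside 3.16% of all genes. Of 5 read against the Mfap5/Clec3b-type these were *Nkd1* and *Twist2*, beside 2.23% of all genes, and 0 were lower against either type. All genes named here passed the limit of 50 UMIs mainly through Crabp1-type cells, so these counts support no conclusion on the list. *Nkd1*, a feedback inhibitor turned on by the pathway, had 115 and 116 CPM against 7.62 and 42.4 CPM and 21.7 and 30.9 CPM in the other types. *Rspo3*, which strengthens Wnt reception, had 84.9 and 65.4 CPM against 30.5 and 28.3 CPM and 57.9 and 25.1 CPM. The pathway targets *Lef1* and *Axin2* had 49.6 and 28.9 CPM and 24.8 and 39.5 CPM.

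Secreted Wnt antagonists did not follow one pattern. Of 2 read against either type, *Wif1* was at least 2-fold higher and *Sfrp2* lower than in both other types, beside 3.16% and 2.23% of all genes higher and 1.46% and 4.08% lower. In the Mfap4/Angptl1-type *Wif1* had 0 UMIs in the WT library and 33.9 CPM in the KO library. *Dkk1*, which blocks Wnt co-receptors, had 79.7 and 41.1 CPM in Crabp1-type cells and 0 UMIs in both other types in both libraries. *Sfrp2* was the reverse, with 118 and 100.4 CPM against 465 and 1136 CPM in the Mfap4/Angptl1-type and 630.2 and 607 CPM in the Mfap5/Clec3b-type. *Sfrp5* had 39.2 and 59.3 CPM.

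Of 12 hedgehog pathway genes, 10 had a UMI, while the ligands *Shh* and *Ihh* had 0. *Ptch1*, the receptor that the pathway itself induces, had 109.7 and 83.6 CPM against 22.9 and 8.48 CPM and 7.24 and 9.67 CPM in the other types. It was 1 of 2 list members that could be read against either type. Of these it was the only one at least 2-fold higher in both libraries, beside 3.16% and 2.23% of all genes. *Ptch1* passed the UMI limit mainly through Crabp1-type cells, so this count supports no conclusion on the list. *Gas1*, a co-receptor, had 235 and 172 CPM, the transducer *Smo* 23.5 and 28.9 CPM and the effector *Gli1* 23.5 and 12.2 CPM. With *Ptch1* included, the list summed to 499 and 386 CPM, against 297 and 461 CPM and 449 and 319 CPM. In KO the sum was thus not higher than in the Mfap4/Angptl1-type.

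In the BMP and TGF-beta list all 22 members had a UMI, and *Id1*, a direct target of BMP signals, was the only one of 3 read that was at least 2-fold higher than in each other type, beside 3.16% and 2.23% of all genes. *Id1* passed the UMI limit mainly through Crabp1-type cells, so this count supports no conclusion on the list. The list's sums did not follow *Id1* throughout, with 837 and 713 CPM against 655 and 1097 CPM and 782 and 719 CPM. Of the FGF list 12 of 13 had a UMI, with 182 and 193 CPM for *Fgfr1* and 60.1 and 42.6 CPM for *Fgfr2*, and *Fgf18* had 0. In the PTH and cAMP list the ligand *Pthlh* had 0 UMIs, while *Gnas*, which encodes the stimulatory G protein that the receptor couples to, had 1553 and 1568 CPM and was not past 2-fold in both libraries against either type.

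Of 17 genes of the retinoid list, 13 had a UMI, and 0 could be read against either type. Without the rule gene *Crabp1* the list summed to 239 and 217 CPM. This was lower than the 381 and 732 CPM and the 456 and 597 CPM of the other types. *Cyp26b1*, which degrades retinoic acid, had 34.0 and 48.7 CPM. *Stra6*, *Aldh1a1*, *Aldh1a2* and *Cyp26a1*, which serve the uptake of retinol and the making and breakdown of retinoic acid, had 0 UMIs. The Irx family was represented by more than the rule gene. *Irx2* had 69.2 and 45.6 CPM against 0 and 5.65 CPM and 21.7 and 3.87 CPM, *Irx5* had 50.9 and 38.0 CPM, *Irx3* had 47.0 and 21.3 CPM, and *Irx6* had 0 UMIs.

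Matrix genes were read by class. Of 10 fibrillar and associated collagens read against either type, 0 were higher and the same 2, *Col12a1* and *Col14a1*, were at least 2-fold lower, beside 1.46% and 4.08% of all genes. Basement membrane genes summed to 487 and 617 CPM, against 755 and 825 CPM and 956 and 994 CPM. Of 4 and 3 of them that could be read, *Col7a1* was higher against either type, beside 3.16% and 2.23% of all genes. It passed the UMI limit mainly through Crabp1-type cells, so its count supports no conclusion on the list. *Nid1* was lower against the Mfap5/Clec3b-type, beside 4.08%. *Col7a1*, whose product anchors the basement membrane to the dermis, had 81.0 and 92.8 CPM against 0 and 14.1 CPM and 7.24 and 0 CPM. Of 7 elastic fibre genes, 3 were at least 2-fold lower than in the Mfap4/Angptl1-type (*Eln*, *Lox* and *Loxl1*), beside 1.46% of all genes, and 5 than in the Mfap5/Clec3b-type (these and the fibrillins *Fbn1* and *Fbn2*), beside 4.08%. The medians of that list were -0.59 and -1.30, beside 0.02 and 0.15 over all genes, and -1.66 and -1.64, beside 0.14 and 0.09. *Eln*, the core of the elastic fibre, had 40.5 and 44.1 CPM against 206 and 175 CPM and 304 and 172 CPM.

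Among small leucine-rich proteoglycans other than the rule genes, *Bgn* and *Aspn* could be read. Both were at least 2-fold lower than in the Mfap4/Angptl1-type in both libraries, beside 1.46% of all genes, and *Aspn* alone than in the Mfap5/Clec3b-type, beside 4.08%. *Omd* and *Ecm2* had 0 UMIs. Of 15 contractile and matricellular genes, *Tagln*, *Cnn1*, *Actg2* and *Ctgf* had 0 UMIs. Of 6 read, 0 were higher and 2 were lower against either type, *Postn* and *Thbs2* against the Mfap4/Angptl1-type and *Postn* and *Thbs1* against the Mfap5/Clec3b-type, beside 1.46% and 4.08% of all genes. *Acta2* had 3.92 and 10.6 CPM in Crabp1-type cells, and 38.1 and 84.8 CPM and 79.7 and 215 CPM in the other types. Of 12 pan-fibroblast genes, all had a UMI in Crabp1-type cells, and 11 and 12 could be read against the 2 other types. *Thy1* was at least 2-fold higher than in either, beside 3.16% and 2.23% of all genes. *Postn* was at least 2-fold lower than in the Mfap4/Angptl1-type, beside 1.46%, and *Postn*, *Fbln2* and *Mmp2* than in the Mfap5/Clec3b-type, beside 4.08%.

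Imprinted growth genes differed as a group. Of 10 read, 7 were at least 2-fold lower than in the Mfap4/Angptl1-type (*Igf2*, *H19*, *Dlk1*, *Meg3*, *Mest*, *Cdkn1c* and *Plagl1*), with 0 higher, beside 1.46% of all genes lower. Against the Mfap5/Clec3b-type 9 of 10 were lower, the same 7 with *Grb10* and *Ndn*, beside 4.08%. Summed over the 13 members, Crabp1-type cells had 5114 and 6467 CPM, the Mfap4/Angptl1-type 16904 and 24134 CPM and the Mfap5/Clec3b-type 27504 and 27366 CPM. *Dlk1*, a Notch-related membrane protein of immature mesenchyme, had 1199 and 1439 CPM against 5945 and 6989 CPM and 9569 and 9199 CPM. *Plagl1*, a zinc finger regulator of imprinted genes, had 70.5 and 100.4 CPM against 473 and 1091 CPM and 1304 and 1284 CPM.

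G2M transcripts were read per cell in each type. With at least 5 UMIs of 20 G2M genes in a thinned cell as the mark, 53 of 147 WT cells (36.1%, 28.3 to 44.4) and 25 of 102 KO cells (24.5%, 16.5 to 34.0) were cycling, by the exact Clopper-Pearson method. The shares were 8.70% (1.07 to 28.0) and 8.47% (2.81 to 18.7) in the Mfap4/Angptl1-type. In the Mfap5/Clec3b-type they were 16.7% (5.64 to 34.7) and 10.5% (4.66 to 19.7), with intervals that overlap those of the Crabp1-type, as does the KO interval of the Mfap4/Angptl1-type. Unthinned, the shares were 43.7% and 42.2% in the Crabp1-type, 21.7% and 15.3% in the Mfap4/Angptl1-type and 27.3% and 23.7% in the Mfap5/Clec3b-type. Of 9 G2M genes read against the Mfap4/Angptl1-type, 5 were at least 2-fold higher in both libraries (*Ccnb2*, *Ccna2*, *Nusap1*, *Ube2c* and *Cdc20*), beside 3.16% of all genes, and *Ccna2* was 1 of 11 against the Mfap5/Clec3b-type, beside 2.23%. The genes named here passed the UMI limit mainly through Crabp1-type cells, so these counts support no conclusion on the list. *Ccna2*, a cyclin of S and G2 phase, had 105 and 85.2 CPM against 22.9 and 19.8 CPM and 43.5 and 36.7 CPM. None of 9 S phase genes passed 2-fold in both libraries against either type.

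Markers of neighbouring dermal fates were then read in the same cells. Of 18 dermal condensate genes, 17 had a UMI, but the defining *Sox2* had 1 and 2 UMIs, *Sox18* 4 and 3 UMIs and *Gal* 0. *Ptch1* and *Rspo3*, which the condensate shares with the surrounding upper dermis, were the only 2 members that could be read. Both were at least 2-fold higher than in the Mfap4/Angptl1-type, beside 3.16% of all genes, and *Ptch1* alone than in the Mfap5/Clec3b-type, beside 2.23%. Both passed the UMI limit mainly through Crabp1-type cells, so these counts support no conclusion on the list. Of the lower dermis and fascia list, *Dpp4* had 3 and 0 UMIs, *Pi16* 2 and 1 UMIs and *Ly6a* 0 and 11 UMIs. *Cd34* and *Dlk1*, the 2 members that could be read against the Mfap5/Clec3b-type, were lower, beside 4.08% of all genes, and *Dlk1*, the only 1 read, was lower against the Mfap4/Angptl1-type, beside 1.46%.

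Several genes known to act on pigment cells were expressed. The nonagouti gene *a*, whose secreted product blocks the melanocortin receptor of melanocytes, had 155 CPM in the WT library (95% interval 129 to 186) and 154 CPM in the KO library (125 to 187). In the other types it had 15.2 and 39.6 CPM and 0 and 23.2 CPM, and it was named after its values were seen. Which allele of *a* the embryos carried was not examined, and RNA counts do not show whether an active product was made. *Kitl*, the ligand of the Kit receptor that melanoblasts need, had 95.4 and 100.4 CPM against 145 and 56.5 CPM and 65.2 and 90.9 CPM, and the chemokine gene *Cxcl12* had 119 and 106 CPM against 76.2 and 127 CPM and 196 and 145 CPM. The 9 ligands on the list of those that support melanoblasts summed to 327 and 351 CPM, against 633 and 695 CPM and 869 and 909 CPM, sums that include *Igf1* with 11.8 and 36.5 CPM against 259 and 418 CPM and 529 and 555 CPM. Of 2 read against the Mfap4/Angptl1-type 0 passed 2-fold in both libraries, and of 3 against the Mfap5/Clec3b-type only *Igf1* was lower, beside 4.08% of all genes. *Edn3* had 5 and 3 UMIs and *Nrg1* 0. Of the chemokine and guidance list, 4 and 5 members could be read against the 2 other types. *Cxcl14*, with 559 and 377 CPM, and *Efna5* were at least 2-fold higher than in either, beside 3.16% and 2.23% of all genes, and *Sema3c* was lower than in the Mfap5/Clec3b-type, beside 4.08%. *Cxcl14* and *Efna5* passed the UMI limit mainly through Crabp1-type cells, so their count supports no conclusion on the list.

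The cells were not uniform. Over cells thinned to 2000 UMIs, the ratio of variance to mean, which is 1 for pure counting noise, had a median of 1.04 and 1.04 over 2022 genes, and 28 genes passed 2 in both libraries. Ordered by the geometric mean over both libraries, *Malat1* led with 14.2 and 9.13. *Lyz2* followed with 18.6 and 3.83, the highest value in WT, where 1 cell held 113 of 231 UMIs, and then *Col1a2* with 6.43 and 8.54. After these came the cell cycle inhibitor *Cdkn1c* with 4.54 and 6.16, *Hmgb2*, a chromatin protein of dividing cells, with 4.37 and 5.23, and *Ptn* with 4.09 and 4.59. Next were *Sparc* with 3.69 and 3.99, *Mt1* with 2.96 and 4.88, *Itm2a* with 3.42 and 4.07 and *Dlk1* with 3.51 and 3.92. The rule genes are given apart, with 7.52 and 7.86 for *Col1a1* and 1.68 and 2.51 for *Crabp1*.

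Cells were split within each library at the median UMI count of the 5 positive rule genes after thinning, into 81 lower and 66 upper WT cells and 52 lower and 50 upper KO cells. The split uses the rule genes that chose the cells, so the values are a description only. *Ptn* had 284 CPM (208 to 379) in the lower group and 106 CPM (58.0 to 178) in the upper group in WT, and 385 CPM (275 to 524) in the lower group and 200 CPM (122 to 309) in the upper group in KO. *Dlk1* had 1333 CPM (1161 to 1524) in the lower group and 977 CPM (816 to 1161) in the upper group in WT, and 1663 CPM (1425 to 1931) in the lower group and 990 CPM (805 to 1205) in the upper group in KO. *Twist2* had 833 CPM (699 to 986) in the lower group and 1045 CPM (878 to 1235) in the upper group in WT, and 798 CPM (636 to 989) in the lower group and 1180 CPM (977 to 1413) in the upper group in KO. The intervals of *Twist2* overlapped in both libraries and those of *Ptn* in KO.

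The share of Crabp1-type cells differed between the libraries in a way that depended on what they were counted against. Of all kept cells they were 9.81% (8.37 to 11.4) in WT and 12.3% (10.2 to 14.8) in KO. KO minus WT was 2.51 points (-0.0915 to 5.30). Of the mesenchymal cells, 209 in WT and 241 in KO, they were 72.2% (65.7 to 78.2) and 42.3% (36.0 to 48.8), and KO minus WT was -29.9 points (-38.2 to -20.9). The Mfap4/Angptl1-type took 11.0% and 24.5% of mesenchymal cells and the Mfap5/Clec3b-type 15.8% and 31.5%. Mesenchymal cells as a whole were 13.6% of the kept WT cells and 29.1% of the kept KO cells, so the other types differed more than the Crabp1-type did. With the rule applied to cells thinned to 2000 UMIs, KO minus WT was -31.4 points of mesenchymal cells and 0.882 points of kept cells. Without cells with over 10 UMIs of other types' markers, the value for kept cells was 5.97 points.

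**Figure D2:**
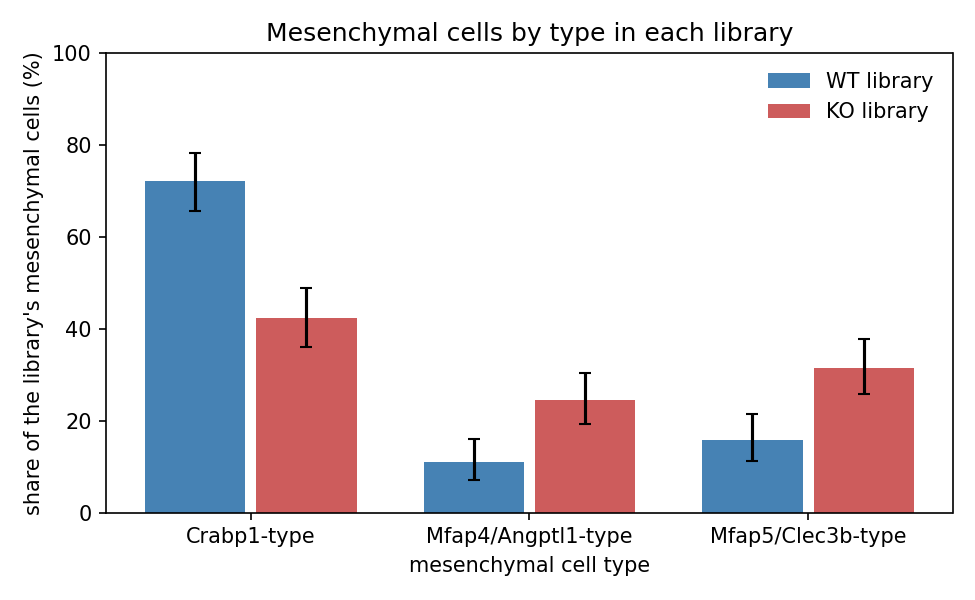
Share of each library's mesenchymal cells (%, bars from 0) that were of the Crabp1-type, Mfap4/Angptl1-type or Mfap5/Clec3b-type, in the WT (blue, 209 cells) and KO (red, 241 cells) library, with exact 95% Clopper-Pearson intervals. The Crabp1-type made up 72.2% in WT and 42.3% in KO.

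Within Crabp1-type cells, most genes had similar levels in the KO and WT libraries. Of 3175 genes with at least 50 UMIs over both, 44 (1.39%) were at least 2-fold higher in KO and 23 (0.724%) at least 2-fold lower, and the median log2 ratio of KO over WT was -0.03, with a 5% to 95% range of -0.59 to 0.61. Ribosomal protein genes (97 read) took 30.1% and 29.9% of UMIs. After thinning to 2000 UMIs 1307 genes could be read, and 17 were higher and 10 lower. The 17 shared 11 genes with the 44, of which 13 could be read there, and the 10 shared 1 gene with the 23, of which 2 could be read. *Twist2* was alike in both libraries, at a log2 ratio of -0.06 (-0.23 to 0.10).

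Most of the 12 genes that led the higher side, among those with at least 100 UMIs, mark other cell types or share reads with copies. The haemoglobin gene *Hba-a2* came first, at a log2 ratio of 5.13 (3.73 to 7.03), then *Cd74*, at 4.62 (3.61 to 5.86), which is taken up with the macrophage genes. *Hbb-bs* had 50.9 and 721 CPM, a log2 ratio of 3.82 (3.35 to 4.33). The near-identical *Hba-a1* (13.1 and 158 CPM) and *Hba-a2* (5.23 and 183 CPM) cannot be told apart by reads with certainty. Of 6 erythroid genes, 5 had a UMI (*Hbb-y* had 0, and *Hbb-bs* was the most abundant), and their sum was 84.9 and 1192 CPM. It was also higher in KO in the Mfap4/Angptl1-type (83.8 and 1164 CPM), the Mfap5/Clec3b-type (72.4 and 1305 CPM) and the pigment cells (77.5 and 1122 CPM). In the macrophage marker-positive cells, with 205 and 1345 CPM, the log2 ratio was smaller, at 2.71 (2.40 to 3.04) against 3.81 (3.45 to 4.20) in Crabp1-type cells.

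Keratinocyte genes were also among the 12. *Krt10*, a keratin of differentiating epidermis, had 41.8 and 175 CPM (2.06, 1.49 to 2.68) and the epidermal galectin gene *Lgals7* 50.9 and 208 CPM (2.03, 1.51 to 2.58), although 1 WT cell held 32 of the 39 WT UMIs of *Lgals7*. All 8 keratinocyte markers had a UMI, with *Krt10* the most abundant in KO, and summed to 106 and 408 CPM. The sum was also higher in the KO library in the Mfap4/Angptl1-type (15.2 and 964 CPM), the Mfap5/Clec3b-type (79.7 and 425 CPM), the pigment cells (162 and 827 CPM) and the macrophage marker-positive cells (32.0 and 255 CPM). The part that RNA from outside the cells had in these values was not tested.

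Apart from *Cd74*, the other 6 of the 12 were the predicted genes *Gm10020*, *Gm10116* and *Gm26917*, the ribosomal RNA locus gene *AY036118*, the histone gene *Hist1h2ap* and *Usp50*. *AY036118* had 596 and 1381 CPM (1.21, 1.05 to 1.38) and 640.2 and 1481 CPM in the Mfap4/Angptl1-type. *Hist1h2ap*, a histone H2A copy whose reads may belong to several near-identical genes, had 120.2 and 287 CPM (1.26, 0.89 to 1.63). Over the settings its ratio ran from 0.47 to 1.35. That of *Usp50* ran from 0.64 to 1.63 and that of *Gm10116* from 0.79 to 1.20, so none of them stayed past 2-fold throughout. Genes named Gm and a number (42 read) had a median log2 ratio of 0.82 and made up 14 of the 44 genes. As many are copies of ribosomal protein genes that share reads with them, their values are uncertain. Without these and without the listed markers of other cell types, an alternative chosen after the values were seen, 23 genes were at least 2-fold higher in KO. This count still held *Cd74* and *Lgals7*, which are on no list.

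Values of macrophage genes rested in part on single cells. *Cd74*, which escorts MHC class II proteins, had 10.5 and 257 CPM, but 131 of its 169 KO UMIs were in 1 cell, and without it the level was 57.8 CPM. *Lyz2*, the lysozyme of macrophages, had 302 and 117 CPM (-1.37, -1.76 to -0.99). Its WT value rested in large part on 1 cell, as given above. Over the settings its log2 ratio ran from -2.45 to -0.72, which is below 2-fold at the weaker end. All 8 macrophage markers had a UMI and summed to 504 and 582 CPM (0.21, 0.00 to 0.42), with *Lyz2* the most abundant in WT and *Fcer1g* in KO. *C1qb* had 7 and 67 UMIs, 40 of the latter in 1 cell, and the list summed to 83.8 and 339 CPM in the Mfap4/Angptl1-type and 79.7 and 69.6 CPM in the Mfap5/Clec3b-type. Mast cell genes summed to 99.3 and 21.3 CPM (-2.22, -3.16 to -1.39), with a UMI of 5 of 6 members, led by *Cma1* in WT and *Cpa3* in KO, and 0 UMIs of *Gata2*. Their sum was also lower in KO in the Mfap4/Angptl1-type (130 and 17.0 CPM) and the Mfap5/Clec3b-type (101 and 19.3 CPM). The same held in the pigment cells (121 and 19.3 CPM) and the macrophage marker-positive cells (131 and 39.7 CPM). Melanoblast genes outside the rule summed to 75.8 and 57.8 CPM with 0 UMIs of *Tyrp1*, and glia genes to 65.3 and 94.3 CPM with a UMI of all 8 members. Endothelial genes summed to 32.7 and 31.9 CPM with 0 UMIs of *Emcn*, pericyte genes to 47.0 and 71.5 CPM and cartilage and bone genes to 30.0 and 36.5 CPM with 0 of *Acan* and *Col2a1*. Without the 5 WT and 5 KO cells with over 10 UMIs of other types' markers, 38 genes were at least 2-fold higher in KO and 14 lower. Scrublet called 2 WT and 1 KO Crabp1-type cells doublets, and they were not removed.

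The G2M genes lay together on the lower side. Of 20 members, all had a UMI and 16 could be read, of which 0 had a log2 ratio above 0 and 16 below it. *Cenpf*, *Nusap1*, *Ube2c* and *Tpx2* were at least 2-fold lower, beside 0.724% of all genes read. The list's median was -0.72, against -0.03 over all genes, and its sum was 2539 and 1586 CPM, a log2 ratio of -0.68 (-0.79 to -0.57). With the rule applied to cells thinned to 2000 UMIs, the log2 ratio of the sum was -1.38. The 16 ratios are not independent, since the same cycling cells carry these transcripts.

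Members that serve the spindle, the kinetochore and anaphase were among the lower ones. *Ube2c* (ENSMUSG00000001403, chr2:164769898-164778822, plus strand), the ubiquitin-conjugating enzyme of the anaphase-promoting complex, had 345 and 137 CPM (-1.33, -1.69 to -0.98). *Cenpf*, a kinetochore protein, had 118 and 47.1 CPM (-1.32, -1.96 to -0.71), and *Nusap1*, which bundles spindle microtubules, had 142 and 66.9 CPM (-1.09, -1.63 to -0.57). The mitotic cyclin gene *Ccnb1* had 129 and 65.4 CPM (-0.98, -1.54 to -0.45), and *Cdc20*, the activator of the anaphase-promoting complex, had 178 and 102 CPM (-0.80, -1.25 to -0.37). The kinase gene *Aurka* had 32 and 6 UMIs (-2.20, -3.74 to -0.92). By contrast *Top2a*, which untangles DNA from S phase onward, had 182 and 176 CPM (-0.04, -0.41 to 0.32), and the proliferation marker *Mki67* 36.6 and 33.5 CPM.

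S phase genes did not share the difference. Of 15 read, 9 had a ratio above 0 and 6 below, 0 passed 2-fold, and the sum was 1287 and 1367 CPM (0.09, -0.04 to 0.22). *Slbp*, which binds histone mRNA, had 150.2 and 184 CPM, and *Rrm2*, a subunit of ribonucleotide reductase, 112 and 71.5 CPM (-0.65, -1.20 to -0.12). In the other cells the G2M sum of KO over WT stood at -0.67 (-0.99 to -0.33) in the Mfap4/Angptl1-type, -0.34 (-0.55 to -0.11) in the Mfap5/Clec3b-type, -0.05 (-0.25 to 0.14) in the macrophage marker-positive cells and -0.24 (-0.32 to -0.15) in the pigment cells. The S phase sum in those groups was also lower in KO, at -0.52 (-0.79 to -0.25), -0.40 (-0.64 to -0.14), -0.40 (-0.68 to -0.13) and -0.24 (-0.34 to -0.13) in the same order.

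**Figure D3:**
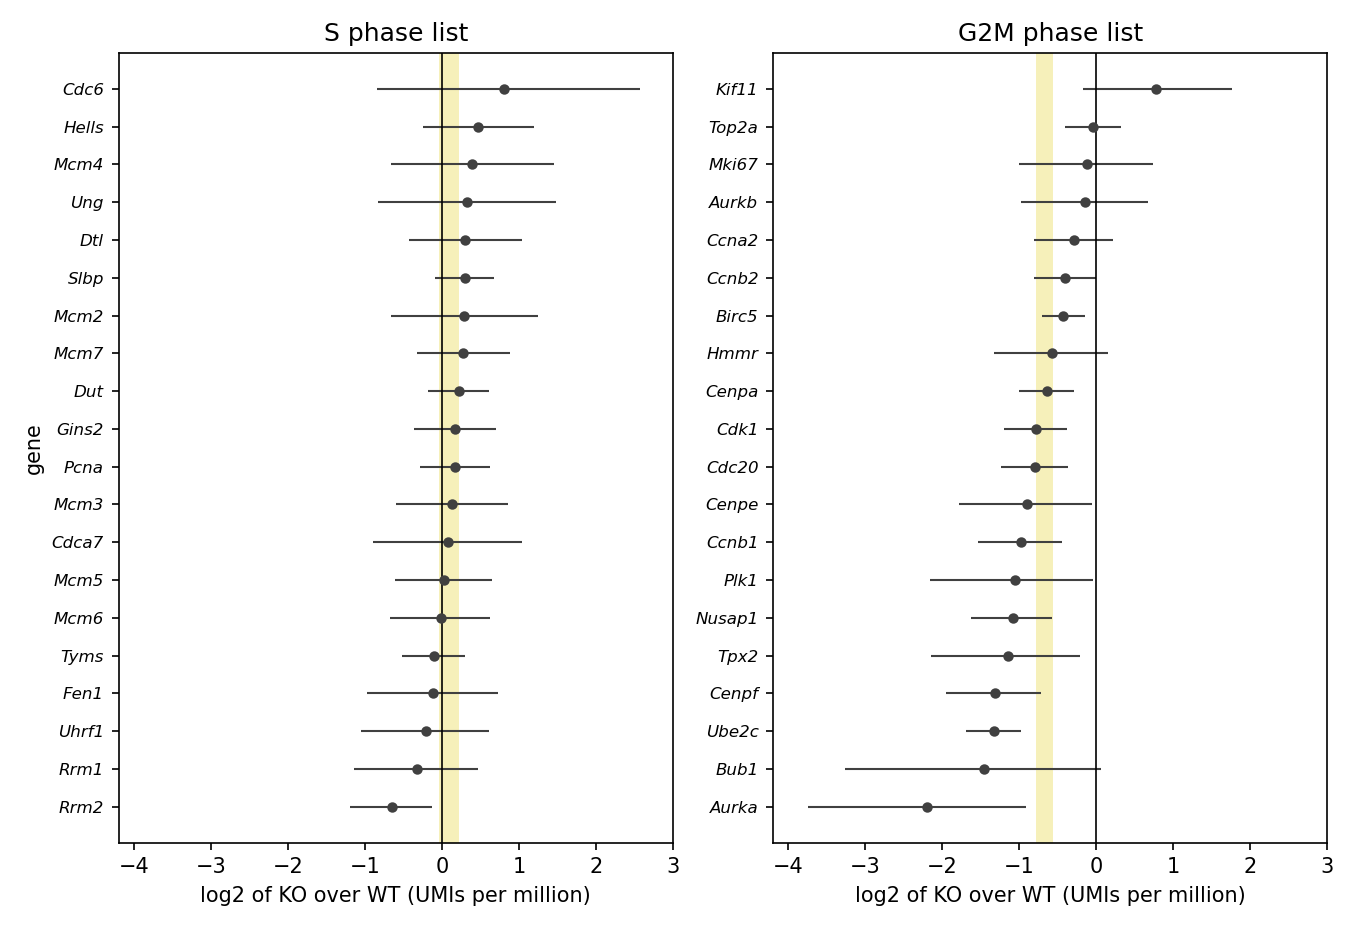
Log2 ratio of KO over WT (CPM, x axis) in Crabp1-type cells for each gene of the S phase list (left) and the G2M phase list (right), with 95% intervals of the counting error. Shaded bands give the interval of the summed list, -0.04 to 0.22 for S phase and -0.79 to -0.57 for G2M phase.

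Counted as cells, the difference was smaller relative to its error. The cycling shares of 36.1% and 24.5% gave a KO minus WT value of -11.5 points (-22.4 to 0.188), and the unthinned shares of 43.7% and 42.2% one of -1.55. With the rule on thinned cells the shares were 32.4% and 13.6% (-18.7 points), with at least 10 UMIs as the mark 20.4% and 12.7% (-7.66 points), and in cells thinned to 1000 UMIs 20.5% and 9.80% (-10.7 points). Among cycling cells the mean number of G2M UMIs was 12.7 in WT and 10.3 in KO. Cells with 0 G2M UMIs after thinning made up 42.2% and 37.3%. The intervals of the share with at least 5 UMIs of S phase genes overlapped widely, from 13.0% to 26.3% in WT and from 14.0% to 30.8% in KO.

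Promoters of G2M genes are known for a pair of elements, the CHR (TTTGAA) and the CCAAT box, through which the DREAM complex and NF-Y act. The letters were searched on both strands, as TTTGAA or TTCAAA and CCAAT or ATTGG, with overlapping matches counted, in the 300 bases from 250 before to 50 after each gene start of RefSeq on GRCm38.p6. Over 32851 promoters of 27025 genes, 17.9% held the first, 37.4% the other and 6.95% both. Of the G2M list 17 of 20 genes were matched, with 17 promoters, of which 12 (70.6%) held TTTGAA, 15 (88.2%) CCAAT and 12 (70.6%) both. Of the S phase list 18 of 20 genes were matched, with 21 promoters, of which 2 (9.52%), 13 (61.9%) and 1 (4.76%) did so.

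Such a match is a description and not a site. *Birc5* and *Nusap1* held neither motif in this window, while *Birc5* had 364 and 271 CPM (-0.43, -0.71 to -0.15) and *Nusap1* was among the genes at least 2-fold lower. *Top2a* held both and was near even. The promoters of 4 of the G2M genes with the largest differences that held both motifs are printed to show where the letters lie, 5′ to 3′ on the strand of the gene, with matches in capitals. They are those of *Ube2c* (chr2:164769679-164769978, plus strand), *Cenpf* (chr1:189688037-189688336, minus strand), *Cdc20* (chr4:118437294-118437593, minus strand) and *Aurka* (chr2:172370521-172370820, minus strand).
Ube2c: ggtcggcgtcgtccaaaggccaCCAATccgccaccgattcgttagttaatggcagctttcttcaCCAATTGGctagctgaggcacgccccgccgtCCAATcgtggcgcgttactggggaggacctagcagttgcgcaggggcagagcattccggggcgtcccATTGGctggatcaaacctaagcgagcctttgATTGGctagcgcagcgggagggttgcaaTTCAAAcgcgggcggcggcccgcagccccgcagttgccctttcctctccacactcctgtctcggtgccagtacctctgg
Cenpf: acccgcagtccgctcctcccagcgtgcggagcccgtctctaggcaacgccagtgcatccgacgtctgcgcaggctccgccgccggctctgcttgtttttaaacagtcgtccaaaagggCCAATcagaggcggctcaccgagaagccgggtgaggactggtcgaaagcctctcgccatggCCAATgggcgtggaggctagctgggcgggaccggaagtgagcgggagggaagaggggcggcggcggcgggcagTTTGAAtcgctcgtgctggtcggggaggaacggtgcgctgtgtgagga
Cdc20: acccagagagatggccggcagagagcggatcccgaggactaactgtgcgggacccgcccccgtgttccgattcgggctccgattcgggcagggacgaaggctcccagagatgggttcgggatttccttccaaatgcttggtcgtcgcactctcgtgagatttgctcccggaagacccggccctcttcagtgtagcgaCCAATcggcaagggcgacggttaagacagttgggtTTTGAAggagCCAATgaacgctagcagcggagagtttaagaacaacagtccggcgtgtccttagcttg
Aurka: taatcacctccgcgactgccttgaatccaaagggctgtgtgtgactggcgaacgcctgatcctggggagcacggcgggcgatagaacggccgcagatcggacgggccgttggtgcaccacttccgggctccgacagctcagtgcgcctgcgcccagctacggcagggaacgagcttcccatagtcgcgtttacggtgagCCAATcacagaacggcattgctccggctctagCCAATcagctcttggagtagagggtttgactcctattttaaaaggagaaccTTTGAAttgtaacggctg

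The other genes among the 12 lowest had mixed roles. *Id1* had 132 and 70.0 CPM (-0.92, -1.45 to -0.40) and the related *Id3* 219 and 157 CPM (-0.49, -0.85 to -0.12). The zinc finger gene *Bcl11a* had 91.4 and 50.2 CPM (-0.87, -1.51 to -0.25), the tubulin gene *Tuba1c* 95.4 and 50.2 CPM, and the coatomer gene *Copg1* 96.7 and 54.8 CPM. *Mt2*, a metallothionein, had 94.1 and 50.2 CPM (-0.91, -1.55 to -0.29), and in cells thinned to 2000 UMIs the ratio turned to 0.53. *Zfand5* had 131 and 68.4 CPM. *Erdr1* had 158 and 62.4 CPM, and as it lies in the pseudoautosomal region, where copies and alleles are poorly assembled, its value is uncertain.

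Of 11 imprinted growth genes read, 9 had a ratio of KO over WT above 0 and 2 below, 1 was at least 2-fold higher, beside 1.39% of all genes, and the list's median was 0.34. The sum of 5114 and 6467 CPM gave a log2 ratio of 0.34 (0.28 to 0.40). With at least 40 mesenchymal UMIs the sum stood at 0.19 and the median at 0.16, and the median was 0.20 with the rule on thinned cells and 0.08 in cells thinned to 2000 UMIs. *Igf2r*, which clears IGF2, had 22.2 and 59.3 CPM (1.42, 0.56 to 2.33). *Cdkn1c* (ENSMUSG00000037664, chr7:143458339-143461050, minus strand) had 899 and 1256 CPM (0.48, 0.34 to 0.63), and *H19*, a growth-restraining RNA, 415 and 599 CPM (0.53, 0.31 to 0.75). The same sum stood at 0.51 (0.45 to 0.58) in the Mfap4/Angptl1-type, -0.01 (-0.06 to 0.04) in the Mfap5/Clec3b-type, 1.54 (1.32 to 1.77) in the macrophage marker-positive cells, which in KO included 3 mesenchymal cells, and 0.72 (0.56 to 0.89) in the pigment cells.

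Of 9 collagen genes outside the rule that were read, 7 had a ratio above 0 and 0 passed 2-fold. Over the whole list of 12 the sum was 6441 and 7671 CPM (0.25, 0.20 to 0.31). *Col5a1*, which sets the width of collagen fibrils, had 201 and 336 CPM (0.74, 0.44 to 1.05). Basement membrane genes had 6 of 7 ratios above 0 and a sum of 487 and 617 CPM (0.34, 0.14 to 0.55). Elastic fibre genes, with 3 above and 5 below, had a sum of 2247 and 2019.7 CPM (-0.15, -0.26 to -0.05). The collagen sum was 130.5 and 373 CPM in pigment cells and 229 and 1305 CPM in the macrophage marker-positive cells, of which 0 of 99 in WT and 3 of 20 in KO also counted as mesenchymal, and the part of RNA from outside the cells was not tested.

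Sums of signalling and transcription factor lists differed by less than 2-fold. Hedgehog genes had 3 of 3 ratios below 0 and a sum of 499 and 386 CPM (-0.37, -0.60 to -0.14), with -0.39 (-0.91 to 0.12) for *Ptch1*. The median of the hedgehog list was -0.39, and -0.09 in cells thinned to 2000 UMIs. The Irx family outside the rule had 3 of 3 below 0 and 169 and 105 CPM (-0.68, -1.13 to -0.25), with *Irx3* at least 2-fold lower, beside 0.724% of all genes. Upper dermis transcription factors had 4 above and 9 below, and 2323 and 2091 CPM (-0.15, -0.25 to -0.05), with 206 and 144 CPM for *Prrx2* (-0.51, -0.90 to -0.14). The Wnt list had 5 above and 4 below (-0.04, -0.16 to 0.08), although *Dkk1* was lower in KO, at -0.96 (-1.67 to -0.28). The PTH and cAMP list, at 0.00 (-0.11 to 0.12), and the pan-fibroblast list, at 0.03 (-0.01 to 0.07), were nearly even in their sums. Of the pan-fibroblast ratios 4 were above 0 and 7 below, with a median of -0.14 beside -0.03 over all genes.

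BMP and TGF-beta genes had 3 ratios on each side and a sum of 837 and 713 CPM (-0.23, -0.41 to -0.06), with the Id genes on the lower side. Dermal condensate genes summed to 465 and 373 CPM (-0.32, -0.56 to -0.08). Chemokine and guidance genes had 1 ratio above and 5 below (-0.22, -0.37 to -0.07), with -0.57 (-0.80 to -0.34) for *Cxcl14*. Ligands that support melanoblasts summed to 327 and 351 CPM (0.11, -0.16 to 0.37), and *a*, at -0.02 (-0.41 to 0.38), was even.

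Of the 7 genes of the HIRA complex and H3.3 list, 4 could be read, and all 7 summed to 4261 and 3717 CPM (-0.20, -0.27 to -0.12). *H3f3b*, one of the genes that encode H3.3, had 2555 and 2059 CPM (-0.31, -0.41 to -0.21) and *H3f3a*, the other, 1548 and 1509 CPM (-0.04, -0.16 to 0.09). Immediate-early and heat shock genes, which also respond to handling of cells, had 11 ratios above 0 and 3 below, and a sum of 5164 and 5719.9 CPM (0.15, 0.08 to 0.21). *Junb* had 482 and 704 CPM (0.55, 0.35 to 0.75), while *Ier2* had 587 and 465 CPM (-0.33, -0.55 to -0.12).

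**Figure D4:**
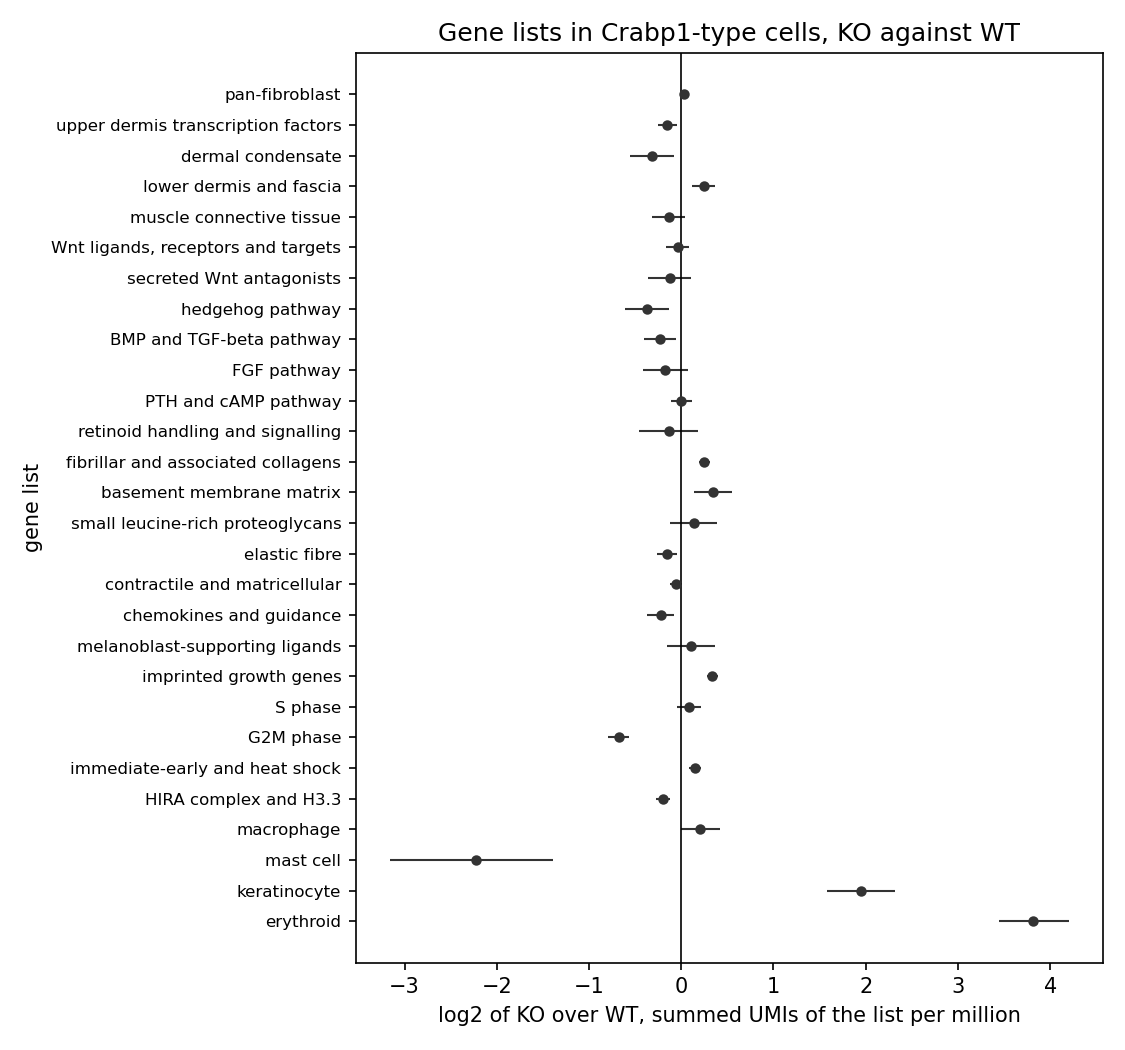
Log2 ratio of KO over WT (CPM summed over each gene list, x axis) in Crabp1-type cells for 28 gene lists, genes of the rule left out, with 95% intervals of the counting error. G2M phase stands at -0.68, imprinted growth genes at 0.34 and the erythroid markers at 3.81.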

How the data were processed

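Counts were taken as the authors deposited them: UMIs per gene and cell barcode, not normalized, from Cell Ranger 2.2.0 on mm10 per the submitters' processing notes, with the tdTomato and Cre sequences added per the study's methods. The files list 28000 genes. Summed UMIs of a group of cells were scaled to CPM, with exact Poisson intervals. Ratios had exact conditional binomial intervals and shares Clopper-Pearson intervals, at 95%. A count of 0 was bounded with 3 counts. With 1 library per genotype no test was run. Genes of the rule and sex-linked genes were left out of gene counts and lists. Thinning used seed 0. The members and gene lists were chosen with earlier results of these data known. Named genes were the 12 highest and 12 lowest ratios among genes with at least 100 UMIs, the 12 most abundant, the 10 leading genes per direction in each comparison of types, list members and label checks, or others as stated. Pigment cells had over 10 UMIs of *Dct*, *Pmel* and *Mlana* and under 20 of the mesenchymal genes. Coordinates of genes follow GENCODE on GRCm38. Tools were Python 3.11.15, numpy 2.4.6, scipy 1.17.1, pandas 2.3.3, scanpy 1.11.5 with Scrublet, anndata 0.12.19 and matplotlib 3.10.9. Results for 2 genes are withheld and not reported here.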

Additional observations from a re-analysis of the deposited data

How the results depend on the processing

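The share of mesenchymal cells that were Crabp1-type kept its direction under every alternative, at 68.3% to 72.5% in WT and 40.5% to 42.6% in KO. The share of kept cells was 7.14% in WT with at least 40 mesenchymal UMIs, 7.33% and 8.21% with the rule applied to cells thinned to 2000 UMIs, and 14.5% and 20.5% (difference 5.97 points) without cells with over 10 UMIs of other types' markers, which removes many cells of the total. Genes at least 2-fold higher in KO numbered 17 in thinned cells, 197 with at least 20 UMIs, 11 with at least 200, 176 at 1.5-fold, 16 at 3-fold and 23 without Gm genes and the listed markers of other types (*Cd74* and *Lgals7* kept), a setting chosen after the data were seen. Genes at least 2-fold lower numbered 10, 190, 2, 165 and 3 in the same first 5 settings, and 14 without cells with other types' markers. Genes higher than in the Mfap4/Angptl1-type numbered 30 in thinned cells and 136 with at least 20 UMIs, and 80 were lower with at least 20. Against the Mfap5/Clec3b-type these were 24 and 130 higher, and 35 and 214 lower. The G2M sum stayed below 0, at -0.83 with an excess of at least 3 UMIs, -0.89 with at least 40 mesenchymal UMIs and -1.38 with the rule on thinned cells. Medians turned direction for upper dermis transcription factors (0.0327, thinned cells), small leucine-rich proteoglycans (-0.38, rule on thinned cells), contractile and matricellular genes (-0.00872, mean over cells; -0.13, thinned cells) and macrophage genes (-2.45, rule on thinned cells; -1.47, thinned cells), as did the ratio of *Mt2* (0.33 and 0.53 in the same settings). Other medians also lay on both sides of 0 over the settings, with these ranges: melanoblast-supporting ligands (-0.38 to 0.21), retinoid genes (-0.24 to 0.48), the PTH and cAMP list (-0.12 to 0.19), muscle connective tissue (-0.13 to 0.07), BMP and TGF-beta genes (-0.82 to 0.03), FGF genes (-0.17 to 0.12), the Wnt list (-0.02 to 0.15), Crabp1-type markers (-0.07 to 0.09), adipocyte markers (-0.26 to 0.25), chemokines and guidance (-0.28 to 0.02) and elastic fibre genes (-0.23 to 0.00369). The summed S phase and Wnt ratios did so as well (-0.02 to 0.12 and -0.04 to 0.08). The cause was not tested, but thinned cells left fewer genes to read (1307 of 3175). No paired analysis was possible because each genotype had 1 library and no test was run.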

Other observations

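Some genes outside the lists were named after their values were seen. *Penk*, the precursor of enkephalin peptides, had 617 and 756 CPM in Crabp1-type cells, against 152 and 107 CPM in the Mfap4/Angptl1-type and 326 and 189 CPM in the Mfap5/Clec3b-type. The matrix genes *Fn1* and *Vcan* ran the other way, with 136 and 183 CPM of *Fn1* against 442 and 619 CPM and 608 and 551 CPM, and 86.2 and 94.3 CPM of *Vcan* against 267 and 229 CPM and 369 and 327 CPM. The transcription factor gene *Zeb2* had 436 and 433 CPM, against 107 and 153 CPM and 167 and 112 CPM.

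For log2 ratios of KO over WT with intervals, *Cav1*, a coat protein of caveolae, had 332 and 225 CPM (-0.56, -0.86 to -0.26), and the metallothionein gene *Mt1* had 345 and 555 CPM (0.69, 0.45 to 0.92). *Apoe*, which carries lipids, had 217 and 408 CPM (0.91, 0.63 to 1.20). In thinned cells its means were closer, at 0.367 UMIs per cell in WT and 0.441 in KO. Its variance there was 1.64 times its mean in WT and 6.71 times in KO, so the size of the difference is uncertain. The MHC class II gene *H2-Aa* had 0 and 57 UMIs, and the epidermal gene *Krtdap* 2 and 66 UMIs.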
